A study of Mus musculus with 12 samples.

Results

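The 38 genes described here encode proteins that duplicate DNA and divide the chromosomes, from cyclins and mitotic kinases to kinetochore subunits, spindle motors and the replication helicase. They were taken by name from the gene table of the study, which lists 34820 genes, and all 38 passed the filter on low counts that left 20180 genes for testing. RNA was sequenced from isolated islets of Langerhans of C57/Bl6 mice. Every animal carried Ins1::Cre-ERT2, a Tamoxifen-dependent Cre driven by the insulin 1 promoter and so active in beta cells, and every animal received Tamoxifen as an adult. Mutant mice were Taf4 lox/lox and lost Taf4, a subunit of the general transcription factor TFIID, in beta cells, while wild-type mice were Taf4+/+. Mutant islets were collected 1, 3 or 5 weeks after Tamoxifen, with 3 libraries at 1 week, 3 at 3 weeks and 2 at 5 weeks analysed, against 3 wild-type libraries whose labels give no time. Each library pooled the islets of 2 mice, kept in culture for a day before RNA extraction. A further 5-week sample is labelled replicate 1 and was not analysed here.

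Cells that divide switch these genes on in turn. The MCM helicase, the sliding clamp PCNA and the enzymes that supply deoxynucleotides serve S phase, and the cyclin B kinase, the spindle motors and the kinetochore serve mitosis, after which most of the transcripts and proteins are removed. Adult beta cells divide rarely, so the transcripts are scarce in islets and can also come from leukocytes, endothelial cells and other cells of the preparation. In bulk RNA, fewer dividing cells and less RNA per dividing cell cannot be told apart.

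Libraries held between 13865518 and 21581153 counts, and the factors that scaled them (the trimmed mean of M-values, TMM) ran from 0.614 to 1.58. Acinar markers, 24 genes of the exocrine pancreas, took 26.9% to 48.6% of the counts in wild type and 0.0327% to 0.217% at 5 weeks. Wild-type libraries held 1599 to 2254 counts of 4 Y-linked genes and the mutant libraries 0 to 3, while Xist stood at 122 to 389 counts in wild type and 24615 to 69939 in mutants, so genotype and sex cannot be told apart in any comparison with wild type. Counts of the targeted gene, listed as Taf4a, were 23.0 to 29.8 CPM (counts per 1000000 of the scaled library size) in wild type, 27.2 to 37.0 at 1 week, 25.9 to 27.4 at 3 weeks and 21.7 to 27.5 at 5 weeks. A whole-gene count over islets in which other cells keep Taf4 does not check the deletion. All 8 beta cell markers had counts in every library.

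Most of the cell cycle genes were scarce. Of the 38, 21 stayed under 100 counts in every library, the median over genes and libraries was 39 counts, and none stood at 0 counts in any library. On the authors' length-corrected scale (normalised counts per kb of transcript) 36 genes had means over all libraries between 7.03, for Ndc80, and 168, for Mcm7. Pcna had a mean of 253 per kb, and Spc25, a subunit of the kinetochore complex NDC80, had a mean of 2296 per kb.

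**Figure D1:**
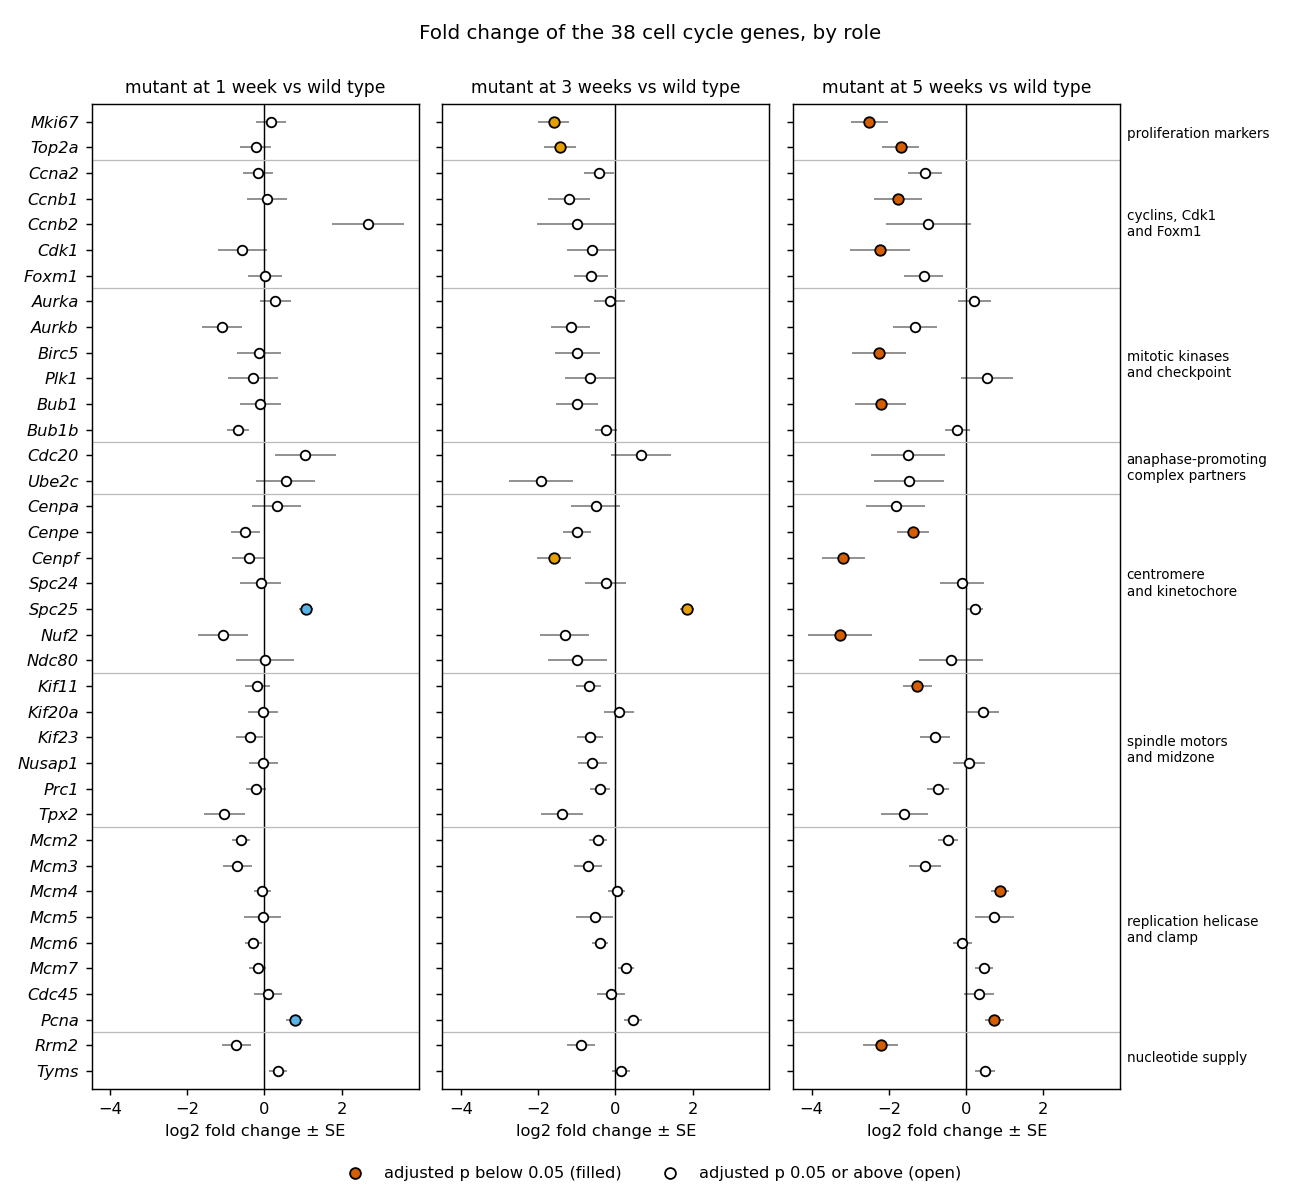
Log2 fold change of each of the 38 genes in mutant islets at 1, 3 and 5 weeks against wild type (points, with bars of 1 standard error), grouped by role. Filled points have an adjusted p below 0.05. At 5 weeks the 11 filled points left of 0 include Mki67 (-2.51), Cenpf (-3.18) and Nuf2 (-3.26), and the 2 to the right are Mcm4 (0.89) and Pcna (0.73).

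More of the genes were called at later times after Taf4 was inactivated, as held for all genes tested. Most of the calls at 3 and 5 weeks were lower. The share called lower was near that of all genes at 3 weeks and above it at 5 weeks. A gene was called where the adjusted p (Benjamini-Hochberg, over all genes tested) of edgeR's quasi-likelihood test was below 0.05. At 1 week 2 of the 38 genes, Spc25 and Pcna, were higher (5.26%, against 5.34% of all genes tested) and 0 were lower (4.42% of all genes). At an unadjusted p below 0.05 by edgeR 3 were lower, as were 2589 of the 20180 genes tested. By DESeq2 0 were lower, against 6.00% of all genes. At 3 weeks 1 was higher (2.63%, against 8.24%) and 3 were lower (7.89%, against 7.76%). At 5 weeks 2 were higher (5.26%, against 15%) and 11 were lower (28.9%, against 14.1%). All 11 that fell at 5 weeks also passed a log2 fold change below -1, as 11.2% of all genes did. The median log2 fold change of the 38 genes was -0.12 at 1 week, -0.62 at 3 weeks and -1.02 at 5 weeks, while that of all genes tested lay between -0.03 and -0.05. For 22 of the 38 genes both 5-week libraries stood below all 3 wild-type libraries, which held for 28% of all genes. The 3 comparisons share their wild-type libraries. The count of 11 was 7 without wild-type replicate 3, when 11.8% of all genes were lower. Fewer were also called lower without either 5-week library, a fit that leaves 1 library in that group. The median log2 fold change of the 38 genes was then -0.71 without 5-week replicate 2 and -1.16 without 5-week replicate 3. The 3 lower at 3 weeks became 0 without 3-week replicate 2, when 5.92% of all genes were lower. They became 1 without 3-week replicate 3 or wild-type replicate 3 (5.01% and 5.23% of all genes).

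Both proliferation markers fell. Mki67 encodes Ki-67, the protein that coats mitotic chromosomes and is used in histology to mark cycling cells. It stood at 8.13, 17.2 and 17.5 CPM in wild type, 11.2, 30.4 and 6.68 in the 1-week libraries, 5.68, 3.93 and 4.59 in the 3-week libraries, and 2.73 and 2.32 in the 5-week libraries. The 3-week and 5-week libraries all lay below the lowest wild-type library, and the 1-week libraries lay on both sides of the wild-type ones. The log2 fold change against wild type was 0.17 ± 0.39 (SE) at 1 week (edgeR, adjusted p = 0.823), -1.60 ± 0.40 at 3 weeks (adjusted p = 0.0108) and -2.51 ± 0.49 at 5 weeks (adjusted p = 0.000829), the last a 5.69-fold drop. Top2a encodes topoisomerase II alpha, which untangles sister chromatids. It stood at 4.48, 6.54 and 10.0 CPM in wild type, 5.12, 10.3 and 2.41 in the 1-week libraries, 2.88, 2.96 and 1.88 in the 3-week libraries, and 1.66 and 2.64 in the 5-week libraries. As for Mki67, no 3-week or 5-week library reached the lowest wild-type one. Its changes were -0.23 ± 0.41 at 1 week (adjusted p = 0.765), -1.44 ± 0.42 at 3 weeks (adjusted p = 0.0244) and -1.69 ± 0.48 at 5 weeks (adjusted p = 0.0125). The 5-week call for Mki67 held when each library of the 2 groups compared was left out, but its 3-week call was lost without 3-week replicate 2 (adjusted p = 0.0539). Top2a lost its 5-week call without wild-type replicate 3 (adjusted p = 0.0596) or 5-week replicate 2 (0.120), and its 3-week call without wild-type replicate 3 (0.134) or without 3-week replicate 1 (0.0567), 2 (0.0536) or 3 (0.108).

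**Figure D2:**
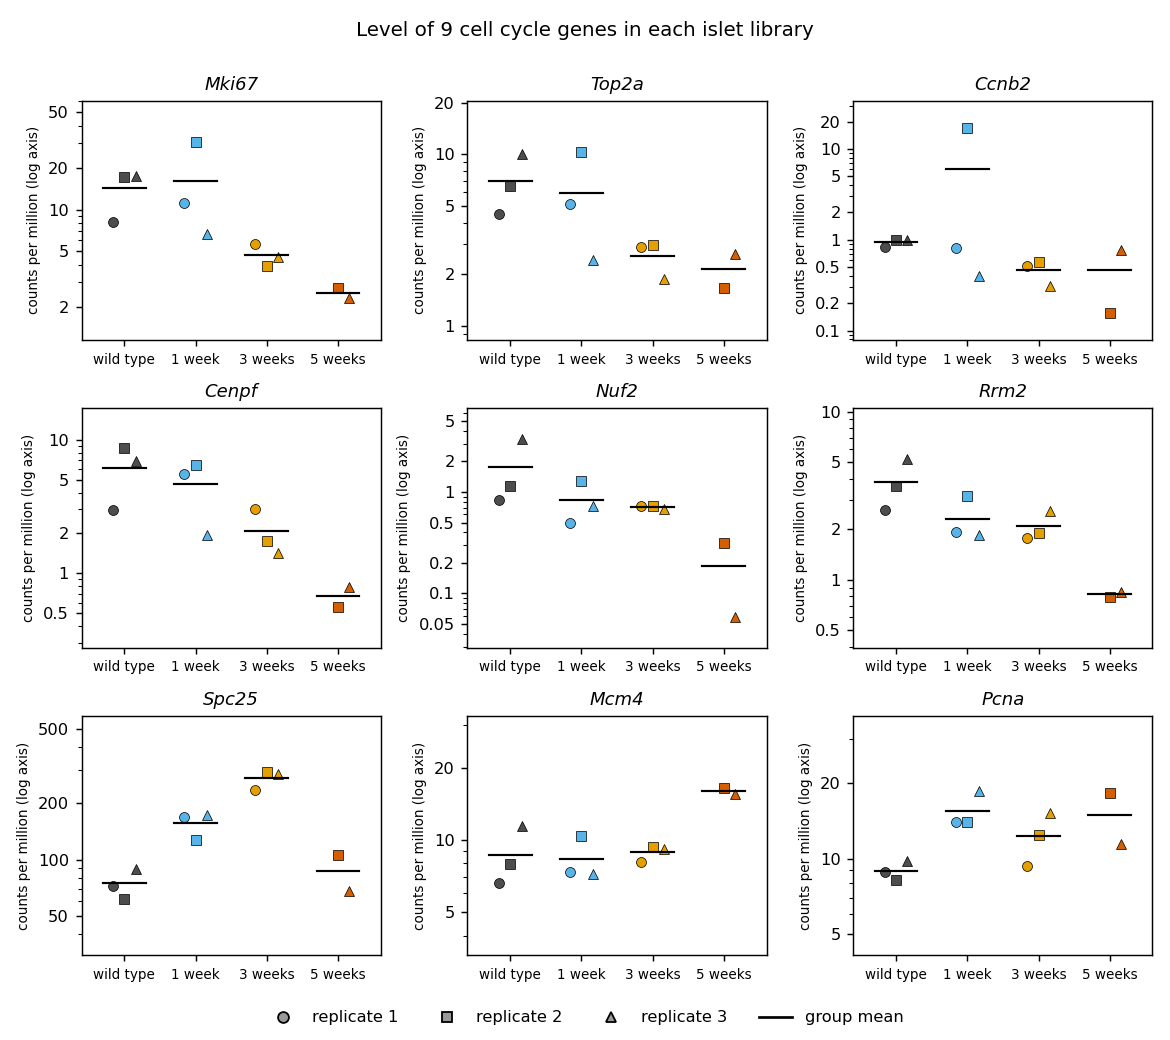
CPM (log axis) of 9 of the genes in each library, by group, with the group mean as a line and the replicate number as the symbol. The means of Mki67 and Cenpf lie below wild type at 3 and 5 weeks, while that of Mki67 at 1 week lies above it. Spc25 peaks at 3 weeks between 237 and 293 CPM, and Ccnb2 has a single high point, 17.0 CPM in 1-week replicate 2.

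Promoters of mitotic genes are known for 2 short elements, the cell cycle genes homology region (CHR) and the CCAAT box, through which the DREAM and MYB-MuvB complexes and NF-Y act. S phase genes more often hold E2F sites. In windows from 250 bases before to 50 after the start of each gene (RefSeq, GRCm38.p6), 31 of the 38 genes had a sequence. The CHR, searched as TTTGAA or TTTAAA on both strands, was in 23 of them (74.2%, against 30.6% of the 27025 genes with a window). CCAAT, on both strands, was in 26 (83.9%, against 41.1%). An E2F-like element, searched by the letters TTCCCGC, by the letters TTCGCGC, by the letters TTGGCGC or by the letters TTGCCGC on both strands, was in 8 (25.8%, against 10.9%). CHR letters were in 9 of the 11 genes that fell at 5 weeks and in 14 of the other 20, and E2F-like letters in 4 of the 11 and 4 of the other 20, differences that were not tested. Among the mitotic genes 19 of 22 held the CHR, and among the replication genes 3 of 7 held the CHR and 4 of 7 an E2F-like element. The windows of Mki67 and Cenpf (which fell), Spc25 (which rose at 1 and 3 weeks) and Pcna (which rose) are shown to set the letters side by side. They are written in the direction of transcription, with every CHR and every CCAAT, or its reverse complement ATTGG, in capitals. They lie at chr7:135716330-135716629, chr1:189688037-189688336, chr2:69206164-69206463 and chr2:132253131-132253430, all on the minus strand.
Mki67: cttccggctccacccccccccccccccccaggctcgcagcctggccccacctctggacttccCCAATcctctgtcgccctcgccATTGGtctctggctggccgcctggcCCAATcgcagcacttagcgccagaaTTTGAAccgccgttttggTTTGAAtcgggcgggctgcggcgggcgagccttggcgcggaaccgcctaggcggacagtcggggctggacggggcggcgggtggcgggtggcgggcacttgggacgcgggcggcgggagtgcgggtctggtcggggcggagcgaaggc
Cenpf: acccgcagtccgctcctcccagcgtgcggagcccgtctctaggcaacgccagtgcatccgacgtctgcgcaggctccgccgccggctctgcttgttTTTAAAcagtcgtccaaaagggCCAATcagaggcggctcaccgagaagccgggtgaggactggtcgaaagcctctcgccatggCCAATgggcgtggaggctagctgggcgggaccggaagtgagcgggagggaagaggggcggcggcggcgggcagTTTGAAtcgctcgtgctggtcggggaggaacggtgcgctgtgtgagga
Spc25: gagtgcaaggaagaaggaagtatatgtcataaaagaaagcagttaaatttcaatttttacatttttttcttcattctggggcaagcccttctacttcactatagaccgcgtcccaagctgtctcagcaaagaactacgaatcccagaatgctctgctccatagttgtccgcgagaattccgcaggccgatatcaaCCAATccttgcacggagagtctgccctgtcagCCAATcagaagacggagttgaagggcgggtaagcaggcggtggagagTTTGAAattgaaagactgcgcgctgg
Pcna: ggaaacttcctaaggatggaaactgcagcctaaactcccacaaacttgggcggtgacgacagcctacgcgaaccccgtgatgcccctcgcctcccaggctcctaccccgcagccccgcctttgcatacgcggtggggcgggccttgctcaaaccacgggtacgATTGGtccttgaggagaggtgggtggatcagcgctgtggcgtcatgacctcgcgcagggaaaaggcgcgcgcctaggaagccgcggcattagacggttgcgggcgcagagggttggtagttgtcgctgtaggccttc
Mki67 and Cenpf each hold 2 CHR matches, with 3 and 2 CCAAT boxes. Spc25 holds 1 CHR and 2 CCAAT boxes, and Pcna holds 1 CCAAT box and 0 CHR matches. Matches of different motifs may overlap, and a match is a description of letters and not a bound site.

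Among the cyclins, their kinase and the factor FOXM1, which drives transcription of late cell cycle genes, 2 of 5 fell at 5 weeks. At that time 14.1% of all genes were lower. Ccnb1 encodes cyclin B1, the partner of CDK1 at mitotic entry. It had 18, 13 and 14 counts in wild type, 23, 18 and 18 in the 1-week libraries, 12, 13 and 12 in the 3-week libraries, and 5 and 18 in the 5-week libraries, or 0.198 and 0.528 CPM at 5 weeks against 0.925 to 1.68 in wild type. Its change was -1.77 ± 0.62 at 5 weeks (edgeR, adjusted p = 0.0391), 0.06 ± 0.52 at 1 week (0.955) and -1.21 ± 0.54 at 3 weeks (0.142). Cdk1, the mitotic kinase itself, stood at 1.77, 1.64 and 3.26 CPM in wild type, 2.04, 2.25 and 0.0805 in the 1-week libraries (the last a single count), 0.889, 1.38 and 2.09 in the 3-week libraries, and 0.396 and 0.528 in the 5-week libraries. Only at 5 weeks did its libraries lie apart from all wild-type ones, with a change of -2.24 ± 0.77 (adjusted p = 0.0364), and the changes at 1 and 3 weeks were -0.58 ± 0.64 (0.614) and -0.61 ± 0.63 (0.553). Foxm1 stood at 2.06, 2.99 and 1.72 CPM in wild type, 1.85, 3.47 and 1.53 in the 1-week libraries, 1.27, 1.26 and 1.88 in the 3-week libraries, and 0.712 and 1.38 in the 5-week libraries, with overlap between wild type and both earlier mutant groups, and had changes of 0.02 ± 0.44, -0.63 ± 0.44 and -1.10 ± 0.50 at 1, 3 and 5 weeks (adjusted p = 0.987, 0.364 and 0.106), and Ccna2, the cyclin of S phase and early mitosis, -1.07 ± 0.44 at 5 weeks (0.0764). Foxm1 shares exons with 4933413G19Rik on the same strand and Ccna2 with Exosc9 on the opposite strand, so their counts are uncertain. Ccnb1 lost its 5-week call in 8 of 13 alternative runs. These included the runs without wild-type replicate 1 (adjusted p = 0.131), wild-type replicate 3 (0.0700) or 5-week replicate 2. Cdk1 lost its 5-week call in 6 of 13. These included the runs without wild-type replicate 1 (0.0578) or 3 (0.115) or without either 5-week library.

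Ccnb2, which encodes the second B-type cyclin, stood apart in 1 library. It had 265 counts in 1-week replicate 2, or 17.0 CPM, and 4 to 26 counts in each of the other 10 libraries, or 0.158 to 0.996 CPM. Its log2 fold change at 1 week was 2.68 ± 0.92 and did not pass the test (edgeR, adjusted p = 0.0732). The same library had the highest Mki67 (30.4 CPM), Top2a (10.3), Ube2c (6.93), Cenpa (4.04) and Cdc20 (1.41) of all 11. It also had the highest sum over 16 leukocyte markers, 442 CPM against 208 and 324 in the other 1-week libraries and 142 to 184 in wild type, with Lyz2, a marker of macrophages and granulocytes, at 238 CPM. Ptprc, which encodes the pan-leukocyte surface protein CD45, stood at 6.87 CPM there, within the wild-type range of 6.35 to 13.4. The part of these cells in the result was not tested.

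Of 6 mitotic kinase and checkpoint genes, 2 fell at 5 weeks, when 14.1% of all genes were lower. Birc5 encodes survivin, which takes Aurora B to the centromere. It stood at 1.31, 2.49 and 1.27 CPM in wild type, 1.11, 2.18 and 1.37 in the 1-week libraries, 0.762, 1.42 and 0.365 in the 3-week libraries, and 0.158 and 0.528 in the 5-week libraries, a change of -2.25 ± 0.70 (edgeR, adjusted p = 0.0215). Bub1, a kinase of the spindle checkpoint, stood at 0.747, 1.42 and 1.90 CPM in wild type, 1.54, 1.03 and 1.21 in the 1-week libraries, 0.593, 1.01 and 0.418 in the 3-week libraries, and 0.317 and 0.264 in the 5-week libraries, a change of -2.21 ± 0.66 (adjusted p = 0.0174). In both genes the 5-week libraries lay below every wild-type and every 1-week library. The other checkpoint kinase gene, Bub1b, was -0.22 ± 0.31 at 5 weeks (adjusted p = 0.628) at a level of 3.89 to 7.04 CPM in wild type and 4.28 to 4.79 CPM at 5 weeks. Aurka, the kinase of spindle poles, was 0.21 ± 0.43 (adjusted p = 0.748), Plk1 0.55 ± 0.68 (0.576) and Aurkb, the centromere kinase, -1.33 ± 0.57 (0.0869). The intervals for Bub1b (2 SE either way, -0.85 to 0.40) and Aurka (-0.65 to 1.07) leave out falls as large as the estimate for Bub1, but a difference between these genes was not tested. Birc5 lost its call without wild-type replicate 2 (adjusted p = 0.0968) or 5-week replicate 2 (0.164), and Bub1 without wild-type replicate 3 (0.0650) or 5-week replicate 2 (0.0668) or 3 (0.0900).

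Cdc20 and Ube2c encode the activator and the ubiquitin carrier of the anaphase-promoting complex, which ends mitosis. Their 5-week changes were -1.51 ± 0.96 (edgeR, adjusted p = 0.250) and -1.47 ± 0.91 (0.235), and Cdc20 rested on 1 and 7 counts at 5 weeks and 2 to 9 counts in wild type. Both share exons with a gene on the other strand, Elovl1 for Cdc20 and Tnnc2 for Ube2c, and the strand was not stated to be used in counting. The authors kept only unambiguously assigned reads, so reads over the shared parts may have been lost.

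The kinetochore joins chromosomes to spindle microtubules. Of the 7 genes of this group, 3 fell at 5 weeks, when 14.1% of all genes were lower. Cenpf encodes a large protein of the outer kinetochore that accumulates before mitosis. It stood at 2.99, 8.61 and 6.96 CPM in wild type, 5.56, 6.42 and 1.93 in the 1-week libraries, 3.01, 1.74 and 1.41 in the 3-week libraries, and 0.554 and 0.791 in the 5-week libraries. The 5-week libraries lay below all other 9. Its changes were -0.41 ± 0.43 at 1 week (edgeR, adjusted p = 0.587), -1.59 ± 0.44 at 3 weeks (0.0190) and -3.18 ± 0.56 at 5 weeks (0.000349), the last a 9.07-fold drop. Cenpe, the kinetochore motor CENP-E, stood at 5.60, 6.97 and 5.16 CPM in wild type, 4.20, 5.52 and 2.82 in the 1-week libraries, 4.49, 1.34 and 3.13 in the 3-week libraries, and 2.57 and 1.99 in the 5-week libraries, a change of -1.38 ± 0.42 (adjusted p = 0.0203), with -0.99 ± 0.37 at 3 weeks (0.0768). Nuf2, a subunit of the NDC80 complex that reaches the microtubule, had 9, 16 and 37 counts in wild type, 8 to 20 at 1 week, 13 to 18 at 3 weeks and 8 and 2 at 5 weeks, a change of -3.26 ± 0.83 (adjusted p = 0.00655). Cenpa, the histone variant that marks centromeres, was -1.83 ± 0.77 at 5 weeks (adjusted p = 0.0808). The 5-week call for Cenpf held when each library of these 2 groups was left out. Its 3-week call was lost without wild-type replicate 2 (adjusted p = 0.109) or 3 (0.0619) or 3-week replicate 2 (0.0755) or 3 (0.0920), Cenpe lost its call without wild-type replicate 2 (0.0716) or 5-week replicate 2 (0.0594) or 3 (0.124), and Nuf2 without 5-week replicate 3 (0.0730).

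Spc25 did not follow the other kinetochore genes. It encodes a globular subunit of the NDC80 complex, in which SPC24 and SPC25 bind the inner kinetochore and NDC80 and NUF2 bind the microtubule, as 1 copy of each. Spc25 stood at 72.5, 62.0 and 89.9 CPM in wild type, 170, 127 and 173 in the 1-week libraries, 237, 293 and 286 in the 3-week libraries, and 107 and 68.1 in the 5-week libraries. The groups at 1 and 3 weeks overlapped with neither wild type nor each other, and the 5-week libraries lay on both sides of the wild-type maximum. It rose by 1.07 ± 0.18 on the log2 scale at 1 week (edgeR, adjusted p = 0.00162) and 1.86 ± 0.19 at 3 weeks (4.63e-06), a 3.64-fold increase, and its change at 5 weeks was 0.23 ± 0.20 (0.430). Both calls held when each library of the 2 groups compared was left out and under the other settings tried. Its partners had changes at 3 weeks of -0.25 ± 0.52 for Spc24 (adjusted p = 0.791), -1.31 ± 0.64 for Nuf2 (0.181) and -0.98 ± 0.77 for Ndc80 (0.424).

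The level of Spc25 was also out of proportion to its partners. Per kb of transcript, on the authors' scale, Spc25 stood at 922 to 1336 in wild type, 1906 to 2635 at 1 week, 3550 to 4384 at 3 weeks and 1017 to 1618 at 5 weeks. In the same libraries the partner with the highest value never exceeded 39.8 per kb, which left Spc25 between 28.3 and 470 times higher. It took 74.4% to 98.0% of the counts of the 7 kinetochore genes, so any sum over that group that includes Spc25 follows Spc25.

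**Figure D3:**
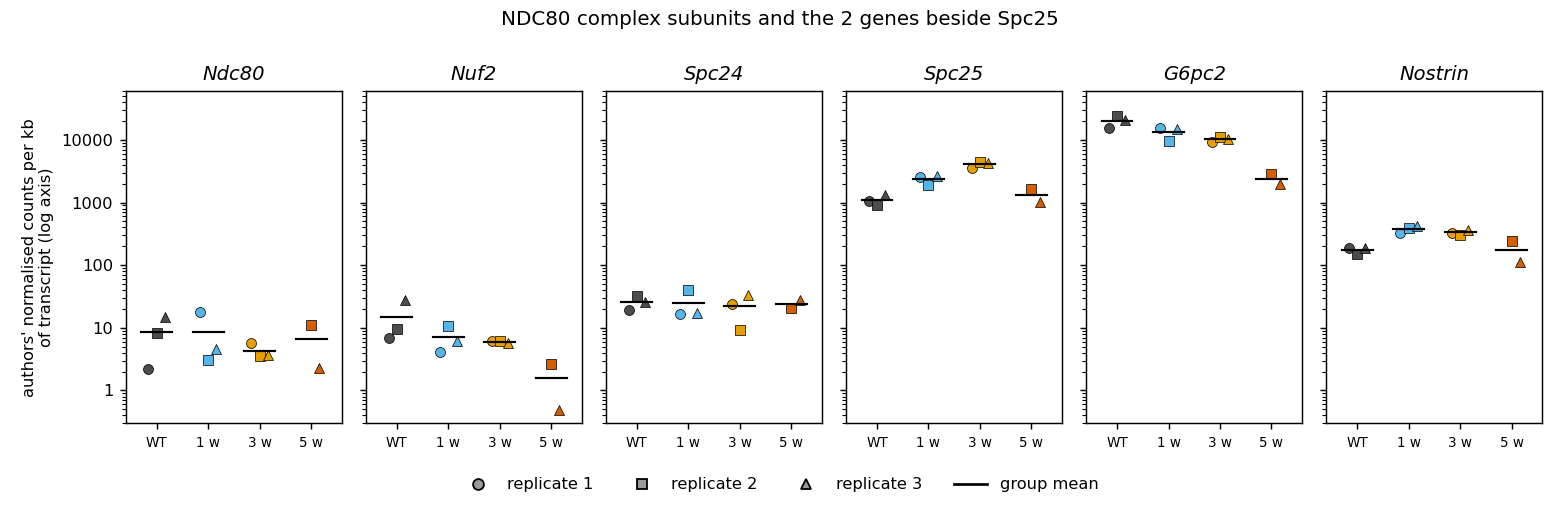
The authors' normalised counts per kb of transcript (log axis) for the 4 NDC80 complex subunits and for G6pc2 and Nostrin, the genes on either side of Spc25, in each library (WT, wild type; w, weeks), with group means as lines. Spc25 lies between 922 and 4384, its partners at 39.8 or below, and G6pc2 falls from 15768 to 24470 in wild type to 2012 to 2828 at 5 weeks.

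Spc25 lies on chromosome 2 from 69031952 to 69044251, on the minus strand (NCBIM37, the build the authors mapped to), and no other annotated gene overlaps it. G6pc2, a glucose-6-phosphatase of beta cells, starts 4878 bases away on the plus strand, at 69049130 to 69065898, so that the 2 genes are transcribed away from each other. Nostrin, which encodes a regulator of endothelial nitric oxide synthase, lies 4564 bases from the other end of Spc25. G6pc2 stood at 1053 to 1619 CPM in wild type, 623 to 1018 at 1 week, 611 to 730 at 3 weeks and 133 to 184 at 5 weeks. It fell at 3 and 5 weeks, with changes of -0.64 ± 0.21 at 1 week (edgeR, adjusted p = 0.0596), -1.01 ± 0.21 at 3 weeks (0.00288) and -3.09 ± 0.26 at 5 weeks (1.25e-07). Spc25 thereby went from 3.77% to 6.77% of the G6pc2 value per kb in wild type to 16.4% to 20.1% at 1 week, 38.1% to 42.1% at 3 weeks and 50.6% to 57.2% at 5 weeks. Nostrin rose at 1 week (1.11 ± 0.22, adjusted p = 0.00411) and 3 weeks (0.91 ± 0.22, 0.00724) and was -0.02 ± 0.24 at 5 weeks (0.956). These 2 neighbours were chosen for their position.

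Of 6 spindle motor and midzone genes, 1 fell at 5 weeks, not far from the 14.1% of all genes that did. Kif11 encodes the motor that pushes spindle poles apart. It stood at 2.99, 3.98 and 3.98 CPM in wild type, 2.59, 4.30 and 2.74 in the 1-week libraries, 2.29, 2.55 and 1.93 in the 3-week libraries, and 1.39 and 1.64 in the 5-week libraries. Its change at 5 weeks was -1.27 ± 0.38 (edgeR, adjusted p = 0.0173), and it did not pass at 3 weeks (-0.69 ± 0.33, 0.169). Tpx2, which activates Aurora A on the spindle, was -1.60 ± 0.61 at 5 weeks (adjusted p = 0.0549), and Prc1, which bundles midzone microtubules, -0.73 ± 0.28 (0.0597). Kif23, a motor of cytokinesis, was -0.81 ± 0.38 (adjusted p = 0.120), and Kif20a and Nusap1 were 0.44 ± 0.42 (0.459) and 0.07 ± 0.41 (0.911). Kif20a and Nusap1 share exons with Cdc23 and Oip5 on the opposite strand. Kif11 lost its call without wild-type replicate 2 (adjusted p = 0.0566) or 5-week replicate 2 (0.0991).

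Of the 8 replication genes, 2 rose at 5 weeks, when 15% of all genes were higher. The other 6 did not pass the test, and the median log2 fold change of the 8 was 0.40. Mcm4 encodes a subunit of the MCM2-7 helicase. It stood at 6.63, 7.97 and 11.4 CPM in wild type, 7.35, 10.4 and 7.24 in the 1-week libraries, 8.13, 9.37 and 9.19 in the 3-week libraries, and 16.4 and 15.6 in the 5-week libraries. Both 5-week libraries lay above all others, with a change of 0.89 ± 0.24 (edgeR, adjusted p = 0.00873) after 0.04 ± 0.22 at 3 weeks (0.931). The other helicase subunits are made in step with MCM4 in dividing cells. At 5 weeks Mcm2 was -0.48 ± 0.26 (adjusted p = 0.176), Mcm3 -1.06 ± 0.41 (0.0599), Mcm5 0.73 ± 0.50 (0.293), Mcm6 -0.09 ± 0.23 (0.794) and Mcm7 0.46 ± 0.23 (0.142). The intervals (2 SE either way) for Mcm5 (-0.28 to 1.74) and Mcm7 (-0.001 to 0.92) hold the estimate for Mcm4. Those for Mcm2, Mcm3 and Mcm6 lie below it, and a difference between these genes was not tested. Cdc45, which joins the helicase when an origin fires, was 0.34 ± 0.39 (0.546), and Mcm7 and Cdc45 share exons with genes on the other strand. Mcm2 stood at 9.62, 8.39 and 8.77 CPM in wild type, 4.51, 5.65 and 7.40 in the 1-week libraries, 5.97, 7.87 and 5.69 in the 3-week libraries, and 5.74 and 7.06 in the 5-week libraries, so that every wild-type library lay above every mutant one, with changes of -0.61 ± 0.24 at 1 week (0.110) and -0.45 ± 0.23 at 3 weeks (0.206). The start of Mcm4 lies 465 bases from that of Prkdc, which encodes the catalytic subunit of the DNA-dependent protein kinase and is transcribed the other way. Prkdc rose by 0.61 ± 0.14 at 3 weeks (adjusted p = 0.00508) and 0.49 ± 0.15 at 5 weeks (0.0210).

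Pcna encodes the sliding clamp, which also serves DNA repair. It stood at 8.87, 8.25 and 9.77 CPM in wild type, 14.0, 13.9 and 18.5 in the 1-week libraries, 9.36, 12.4 and 15.2 in the 3-week libraries, and 18.3 and 11.4 in the 5-week libraries. All 1-week and 5-week libraries exceeded all wild-type ones. The change was 0.79 ± 0.22 at 1 week (edgeR, adjusted p = 0.0338), 0.46 ± 0.22 at 3 weeks (0.179) and 0.73 ± 0.24 at 5 weeks (0.0304). The 1-week call was lost without wild-type replicate 1 (adjusted p = 0.103) or 2 (0.108) or 1-week replicate 3 (0.127), and the 5-week call without wild-type replicate 1 (0.0707) or 2 (0.0897) or 5-week replicate 2, where the change was 0.37 (0.372).

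Of the 2 genes of nucleotide supply, 1 fell at 5 weeks, when 14.1% of all genes were lower. Rrm2, the S phase subunit of ribonucleotide reductase, stood at 2.62, 3.63 and 5.25 CPM in wild type, 1.91, 3.15 and 1.85 in the 1-week libraries, 1.78, 1.91 and 2.56 in the 3-week libraries, and 0.791 and 0.850 in the 5-week libraries. Its libraries at 3 and 5 weeks lay below all wild-type ones. It fell by 2.21 ± 0.45 on the log2 scale at 5 weeks (edgeR, adjusted p = 0.00122), a call that held when each library of these 2 groups was left out, with -0.73 ± 0.37 at 1 week (0.230) and -0.88 ± 0.37 at 3 weeks (0.115). Tyms, thymidylate synthase, was 0.48 ± 0.26 at 5 weeks (adjusted p = 0.165), at 6.63 to 7.60 CPM in wild type and 7.41 to 12.7 CPM at 5 weeks. It shares exons with a gene on the other strand.

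Within the mutant, the times can be compared with each other and not with a wild-type mean, and so within 1 sex. The wild-type libraries still entered the filter, the scaling and the estimate of spread. From 1 to 3 weeks 1 of the 38 genes was higher (0.942% of all genes tested) and 2 were lower (2.87%). Spc25 rose by 0.79 ± 0.18 (edgeR, adjusted p = 0.0187), and Mki67 (-1.77 ± 0.40, 0.0171) and Ccnb2 (-3.69 ± 0.95, 0.0350) were lower. The call of Spc25 was lost without 1-week replicate 2 or without 3-week replicate 2 or 3. From 1 to 5 weeks 1 was higher (7.68% of all genes) and 9 were lower (23.7%, against 8.76%). The 9 were Mki67 (-2.68 ± 0.49, adjusted p = 0.000791), Cenpf (-2.77 ± 0.55, 0.00180), Spc25 (-0.84 ± 0.21, 0.00865), Ccnb2 (-3.66 ± 1.09, 0.0274), Rrm2 (-1.48 ± 0.44, 0.0280), Bub1 (-2.10 ± 0.65, 0.0345), Top2a (-1.46 ± 0.47, 0.0413), Birc5 (-2.12 ± 0.69, 0.0434) and Ccnb1 (-1.84 ± 0.62, 0.0489), and the gene that rose was Mcm4 (0.94 ± 0.23, 0.00959). Here 1-week replicate 2 weighed on the values. Without it Ccnb2 was -0.39 from 1 to 3 weeks and -0.38 from 1 to 5 weeks, Mki67 was -0.93 from 1 to 3 weeks (adjusted p = 0.119), Top2a was -0.82 from 1 to 5 weeks (0.236), and the 9 lower genes became 4. The 5-week falls of Mki67 and Cenpf and the rise of Mcm4 against 1 week held when each library of these 2 groups was left out. Spc25 was -0.55 without 5-week replicate 3 (adjusted p = 0.123), the 9 became 4 without either 5-week library, and both calls of lower genes from 1 to 3 weeks were lost without any 1 of the 3-week libraries.

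**Figure D4:**
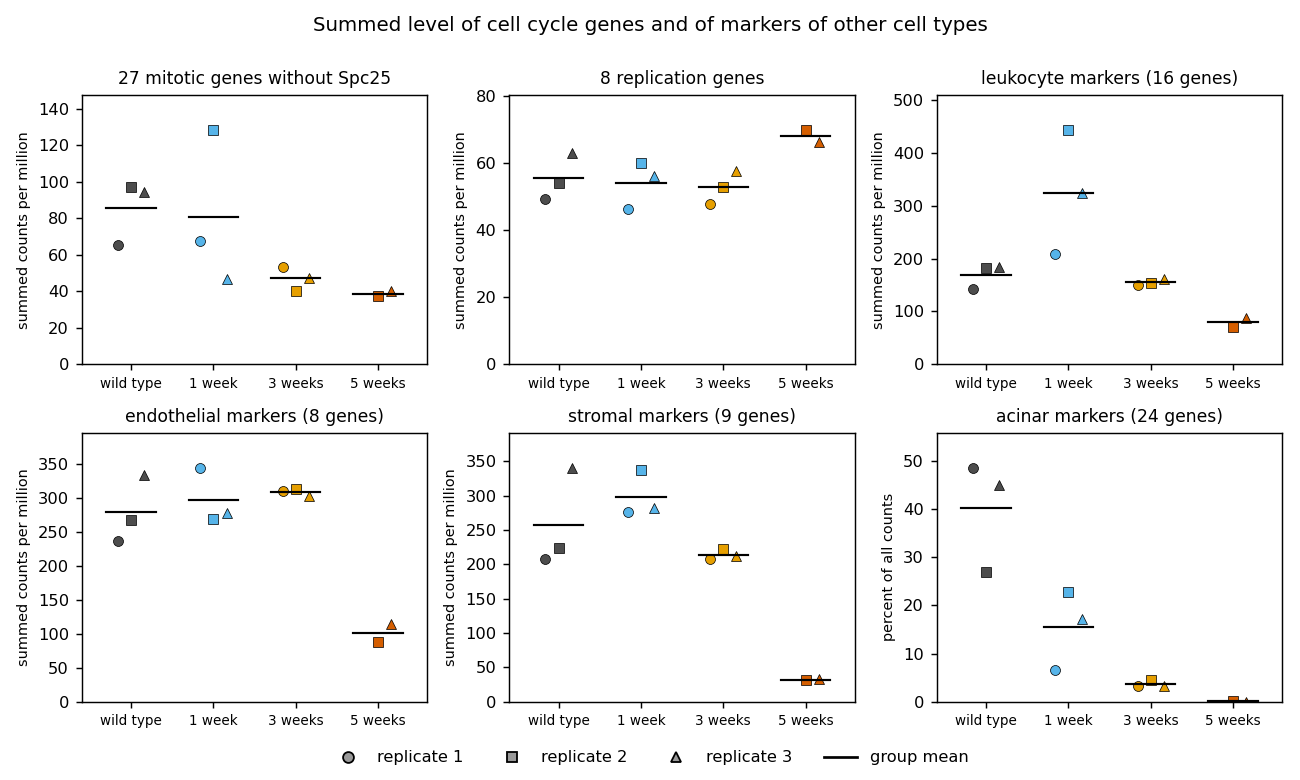
Summed CPM in each library of 27 mitotic genes without Spc25, of 8 replication genes and of markers of leukocytes, endothelial cells and stromal cells, and the share of all counts taken by acinar markers, with group means as lines. At 5 weeks the mitotic sum stands at 37.3 and 39.9 CPM and the replication sum at 69.7 and 66.4, and the marker sums of the other cell types are at their lowest at 5 weeks.

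Marker genes of several cell types also differed between the groups. Summed over the 27 genes of mitosis other than Spc25, the libraries held 65.4, 97.1 and 94.2 CPM in wild type, 67.5, 128 and 46.7 in the 1-week libraries, 53.5, 40.2 and 47.5 in the 3-week libraries, and 37.3 and 39.9 in the 5-week libraries. The 8 replication genes summed to 49.3 to 62.9 CPM in wild type, 46.2 to 59.9 at 1 week, 47.7 to 57.6 at 3 weeks and 66.4 to 69.7 at 5 weeks. The leukocyte markers summed to 142 to 184 CPM in wild type, 208 to 442 at 1 week, 151 to 161 at 3 weeks and 71.0 to 88.1 at 5 weeks. At 5 weeks, when 14.1% of all genes were lower and 15% higher, 9 of the 16 leukocyte markers were lower and 1 was higher, 7 of 8 endothelial markers were lower (87.5 to 115 CPM in all, from 237 to 334 in wild type) and 8 of 9 stromal markers were lower (31.5 to 32.4, from 208 to 340). All 24 acinar markers and 4 of 8 beta cell markers were lower at 5 weeks (beta cell sum 30046 and 66808 CPM, from 135650 to 185212 in wild type), while 1 of 5 alpha and 2 of 5 delta and PP cell markers were higher. At 3 weeks, when Mki67, Top2a and Cenpf were already lower, all 24 acinar markers were lower too, with 3.18% to 4.43% of the counts. At that time, with 7.76% of all genes lower, 3 of 16 leukocyte, 1 of 8 endothelial and 4 of 9 stromal markers were lower, and the endothelial sum was 303 to 314 CPM. All endothelial and stromal markers and 15 of the 16 leukocyte markers had counts in every library, and their part in the result was not tested.

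**Figure D5:**
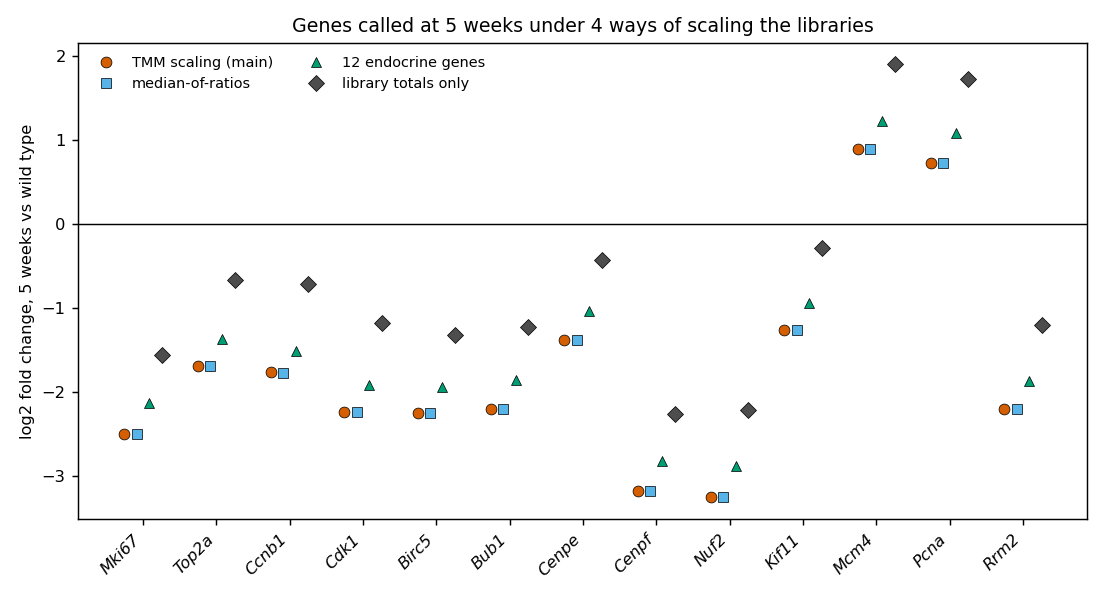
Log2 fold change at 5 weeks against wild type of the 13 genes called there, under 4 ways of scaling the libraries. Every gene keeps its sign under all 4, and the values without scaling lie about 1 log2 unit above those with TMM, as the median of all genes does.

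How the libraries were scaled shifted all genes together. On library totals with no scaling, the median log2 fold change of all genes at 5 weeks moved up by 0.99, to 0.95. Of the 38 genes 3, Mki67, Cenpf and Nuf2, were called lower and 10 higher. Of all genes 4.43% were then lower and 49.4% higher. The calls of Top2a, Ccnb1, Cdk1, Birc5, Bub1, Cenpe, Kif11 and Rrm2 were lost, with log2 fold changes from -0.29 (Kif11) to -1.33 (Birc5). Among all called genes 91.8% were then higher, against 51.6% with TMM. When libraries were scaled to 12 genes shared by endocrine cells, the median moved up by 0.32 and 74.8% of called genes were higher. Of the 38 genes 8 were lower and 4 higher, against 9.14% and 27.1% of all genes. The median of the 38 genes themselves at 5 weeks was -1.02 with TMM, -0.009 with no scaling and -0.72 with the endocrine genes. Relative to the median of all genes, the 38 genes stood at -0.98 with TMM, -0.96 with no scaling and -1.01 with the endocrine genes. A change of scaling moves all genes nearly alike, so these differences were bound to lie close together. At 3 weeks the same differences were -0.57, -0.58 and -0.58, although the count of lower genes was 3, 1 and 15. Of all genes 7.76%, 2.55% and 22.3% were lower in these 3 runs. The fall of Spc25 from 1 to 5 weeks was -0.07 with no scaling and -0.18 with the endocrine genes.

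Other genes of the same pathways are given from lists that were not trimmed by how they moved. At 5 weeks 15% of all genes were higher and 14.1% lower. Of 29 other replication genes tested, 12 rose and 1 fell at 5 weeks, with a median log2 fold change of 0.55. They included the origin recognition subunit Orc2 (1.56 ± 0.18, edgeR, adjusted p = 5.17e-06), DNA ligase Lig1 (1.45 ± 0.24, 0.000228) and the helicase cofactor subunit Gins4 (1.04 ± 0.22, 0.00186), and Orc6 was already higher at 1 week (1.06 ± 0.22, 0.00529). Of 29 other mitosis genes, 1 rose and 6 fell, with a median of -0.60. The genes that fell included Hmmr, a spindle protein (-2.28 ± 0.50, 0.00224) and Pbk, a mitotic kinase (-3.20 ± 0.74, 0.00341), and the gene that rose was Pttg1, which encodes securin, the inhibitor of separase (1.02 ± 0.22, 0.00201). Of 28 other kinetochore and checkpoint genes, 4 rose, a share near that of all genes, and 1 fell at 5 weeks, with a median of -0.03. Zwint, a kinetochore protein also found in neurons, stood at 46.8 to 56.9 CPM in wild type and 88.8 to 150 CPM at 5 weeks and was higher at all 3 times (0.78 ± 0.17, 0.57 ± 0.17 and 1.21 ± 0.18). Bub3 rose by 0.72 ± 0.17 at 5 weeks (0.00389).

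The counts called in the lists of upstream regulators at 5 weeks were not far from the shares of all genes, 15% higher and 14.1% lower. The values given are those of single genes and do not describe a change of the lists. Cdkn1a, which encodes the CDK inhibitor p21, rose by 1.50 ± 0.19 at 1 week (edgeR, adjusted p = 9.78e-05), 1.58 ± 0.19 at 3 weeks (2.07e-05) and 2.52 ± 0.20 at 5 weeks (8.30e-08), from a mean of 46.7 CPM in wild type to 267 CPM at 5 weeks. Rb1, the retinoblastoma protein that holds E2F factors in check, rose by 0.88 ± 0.14 at 3 weeks (0.000269) and 0.93 ± 0.15 at 5 weeks (0.000176). These were the 2 that rose at 5 weeks of 9 CDK inhibitor and pocket protein genes tested. Of 12 G1 cyclin and kinase genes, Ccnd1, which encodes cyclin D1 (-1.12 ± 0.18, 0.000178), and Cdk6, its kinase (-3.43 ± 0.46, 2.38e-05), were the 2 that fell at 5 weeks. Of 16 E2F, MYB and MuvB genes, 3 rose and 3 fell at 5 weeks, with a median log2 fold change of 0.46. Only the 3 with the lowest adjusted p are named. The activating factors E2f1 (-2.34 ± 0.42, 0.000447) and E2f2 (-1.90 ± 0.39, 0.00141) were lower and E2f6, a repressor, was higher (1.02 ± 0.18, 0.000292), and E2f1 was lower from 1 week on (-1.63 ± 0.36, 0.00863).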

How the data were processed

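RNA from islets was amplified linearly and sequenced. Per the labels and the study's methods, the authors trimmed reads with cutadapt, removed ribosomal reads with Bowtie2, mapped the rest with STAR to mm9 (NCBIM37) and counted unique reads per gene with HTSeq in union mode on Ensembl 67. The deposited counts are these raw counts, and the deposited signal values are the authors' DESeq2-normalised counts divided by the median transcript length in kb. The deposited lists of the authors' own comparisons were not used. Linear amplification and reads lost between overlapping genes can change levels. Depth is given as total counts, and errors on single libraries would cover counting only.

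All values printed as CPM, and all tests, were computed here from the counts with edgeR (version 4.0.16, R 4.3.3): filterByExpr, TMM, 1 quasi-likelihood model over the 4 groups, and Benjamini-Hochberg adjustment over 20180 genes. SE is the log2 fold change divided by the root of F. Labels do not say that libraries are separate experiments, so p-values measure the spread between them. In simulated data the estimates were centred on the known changes, and many of the smaller changes were missed. The simulated libraries shared the same mean profile apart from the changed genes. A loss of acinar RNA such as that seen here was not simulated. No replicate pair agreed within sampling noise.

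The 38 genes and the marker and pathway lists were chosen with earlier results of these data known. Described in full are genes that passed a test against wild type, with Mki67, Top2a, Cdk1, Ccnb1, Foxm1, Mcm2 and Pcna in any case. Of the pathway lists up to 3 genes per comparison with the lowest adjusted p were named. Alternatives tried were other scalings, no filter, no acinar markers, DESeq2 (version 1.42.0), a replicate block, fits of 2 groups, and leaving out each library.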

Additional observations from a re-analysis of the deposited data

Results flagged for a closer look

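Differences between the times were tested within the mutant, so each value below is also the difference between 2 effects against the shared wild-type libraries, and 13 of them passed edgeR's test. From 1 to 3 weeks the log2 changes were -1.77 for Mki67, -3.69 for Ccnb2 and 0.79 for Spc25. From 1 to 5 weeks they were -2.68 for Mki67, -2.77 for Cenpf, -1.46 for Top2a, -1.84 for Ccnb1, -3.66 for Ccnb2, -2.12 for Birc5, -2.10 for Bub1 and -1.48 for Rrm2, with -0.84 for Spc25 and 0.94 for Mcm4. Ccnb2 rested on 1-week replicate 2, where it had 265 counts against 5 and 13 in the other 1-week libraries.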

How the results depend on the processing

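No called value changed its direction under any alternative run. The number of the 38 genes called (by edgeR, adjusted p below 0.05) moved as follows. Without each library of the 2 groups compared, 1 to 3 genes were higher and 0 lower at 1 week (2 and 0 in the report), 1 higher and 0 to 3 lower at 3 weeks (1 and 3), 1 to 3 higher and 4 to 9 lower at 5 weeks (2 and 11), 0 to 1 higher and 0 to 4 lower from 1 to 3 weeks (1 and 2), and 1 higher and 4 to 10 lower from 1 to 5 weeks (1 and 9). Without a library of another group, 4 were lower at 3 weeks without 1-week replicate 2, 11 to 13 lower at 5 weeks and 6 to 8 lower from 1 to 5 weeks. With no scaling, 5 were higher and 1 lower at 3 weeks (35.6% and 2.55% of all genes). At 5 weeks 10 were higher and 3 lower (49.4% and 4.43%). In that run 2 were higher from 1 to 3 weeks (10.4%), and 10 higher and 3 lower from 1 to 5 weeks (42.2% and 3.26%). With scaling to endocrine genes, 1 was higher and 2 lower at 1 week (1.27% and 12.3% of all genes). In that run 15 were lower at 3 weeks (22.3%), 4 higher at 5 weeks (27.1%) and 0 higher from 1 to 3 weeks (0.287%). From 1 to 5 weeks 8 were higher and 3 lower (39.6% and 4.14%). Fitting only the 2 groups compared gave 6 lower at 3 weeks, 1 lower from 1 to 3 weeks and 3 lower from 1 to 5 weeks, and no filter gave 5 lower from 1 to 3 weeks. Over all genes, the 1663 higher and 1566 lower at 3 weeks became 7176 and 514 with no scaling and 226 and 4507 with the endocrine genes, and the 3027 higher and 2836 lower at 5 weeks became 9963 and 894, and 5468 and 1845. The cause was not tested. Of the 32 called values, 16 lost their call with no scaling, 11 with the endocrine genes, 10 with a replicate block, 8 in fits of 2 groups, 3 with no filter and 2 with DESeq2.

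Over 15 pairs of libraries with the same replicate number, deviations from the group means had correlations from -0.115 to 0.185, and 1 was above 0.1. With so few libraries per group the deviations depend on each other, so this check cannot tell whether the numbers pair the libraries. With the replicate number as a block, 1 gene was higher at 1 week, 1 higher and 10 lower at 5 weeks, 1 lower from 1 to 3 weeks and 4 lower from 1 to 5 weeks. Of the 38 genes, 21 stayed under 100 counts in every library, and the 5-week group had 2 libraries. Both limit the precision.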
